A study of Mus musculus with 3 samples.

Results

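The genes described here encode the carriers that bring glucose, amino acids and monocarboxylates across cell membranes. They were taken by symbol, as every probe whose gene symbol placed it in the solute carrier families Slc1, Slc2, Slc3, Slc5, Slc6, Slc7, Slc16, Slc36, Slc38 or Slc43. This gave 114 of the 25697 probes on the array, for 84 gene symbols. A further 14 probes carried older symbols of genes of these families and were not members.

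Embryonic stem (ES) cells of the mouse, of strain background 129 and carrying a Sox17-GFP reporter, were measured on 1-colour Illumina bead arrays, in 3 groups of 2 arrays. Sox17 is an endoderm transcription factor, and its reporter marks cells that express it. The first group held Sox17-GFP(+) cells after recombinant human Activin A at 50 ng/ml, and the second held Sox17-GFP(+) cells after recombinant mouse Nodal at 1000 ng/ml. The third group was undifferentiated cells of the same line. The treated groups are named as day 7 samples, within a protocol of 6 to 8 days.

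Undifferentiated cells were kept on gelatin with embryonic fibroblast feeders, with LIF and 15% serum, and differentiation was in 5% serum. DMEM, non-essential amino acids at 0.1 mM, a stabilised glutamine supplement and 0.055 mM mercaptoethanol were common to both media. No untreated cells of the same day were measured, so an effect of Activin or Nodal cannot be told apart from culture time, serum, LIF, feeders or selection by the reporter. Dose, protein and species of origin also differ together between the treated groups. In RNA from whole populations, fewer cells of a type and less RNA per cell cannot be told apart.

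Between 49.34% and 50.56% of all probes were detected per array, where detected means a detection p-value under 0.05. Levels are log2 of the background-corrected, quantile-normalized signal. Arrays of one group correlated at 0.9969 to 0.99773 across genes. The log2 level of Sox17 was 6.58 and 6.45 on the undifferentiated arrays and between 11.79 and 11.90 on the 4 treated arrays. Nothing in the labels says that arrays of 1 group are separate cultures, so p-values measure the spread between arrays, which may be technical.

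As background, Slc2 proteins carry glucose down its gradient, Slc5 proteins couple sugars and other solutes to sodium, and Slc16 proteins move lactate, pyruvate and other monocarboxylates, some of them with a partner glycoprotein. Most amino acid exchangers of the Slc7 family work only when bound to the heavy chain Slc3a2. Genes of amino acid uptake and synthesis are known targets of the transcription factor Atf4, which cells use in amino acid shortage and other stress.

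Of the 84 symbols, 42 could be tested, because at least 1 of their probes was detected on 2 or more arrays. Slc7a6os, 1 of these 42, is the gene on the opposite strand of Slc7a6, is not a transporter. It matched by symbol and is included in the counts over all 42 genes, and without it 41 genes were tested, of which 15 in place of 16 were lower in each comparison with undifferentiated cells. After Activin, 16 of the 42 genes were higher than in undifferentiated cells, 16 were lower and 10 did not pass (limma, adjusted p under 0.05). Over all 10222 genes tested, 73.7% passed, with 36.5% of the genes tested higher and 37.2% lower. After Nodal, 17 genes were higher, 16 lower and 9 did not pass, beside 74.2% of all genes passing, 36.8% higher and 37.4% lower. The members' shares are thus close to those of the array as a whole. Their median log2 change was 0.02 after Activin and -0.05 after Nodal, against -0.02 and -0.01 over all genes.

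Changes of at least 2-fold that passed were found for 4 higher and 8 lower members after Activin, where 14.3% and 12.6% of all genes did so. After Nodal there were 4 higher and 7 lower, against 14.7% and 12.9% of all genes. Both comparisons use the same undifferentiated arrays, so their values are given side by side and are not independent. The filter shaped these counts. Of the 42 genes, 23 were detected on both arrays of all 3 groups, and among these 8 were higher and 10 lower after Activin. The other tested genes passed the filter through some of the arrays only. For 9 of them no undifferentiated array was positive, and for 6 no array of treated cells was. A gene that enters the test through 1 condition in this way has its direction set by the filter, so that direction is a description. It need not pass: of the 9 genes, 8 were higher and 1 did not pass in each comparison, and all 6 others were lower. Leaving out an undifferentiated array and filtering anew removed the 6 genes detected on these arrays only, and with other calls lost and gained the lower count after Activin became 10 without the first of these arrays and 8 without the second, and after Nodal 10 without the second.

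Summed levels of marker lists of several cell types differed between the groups. Macrophage markers had a summed linear level of 12100 to 13280 on the undifferentiated arrays, against 508.8 to 524.9 after Activin and 511 to 515.1 after Nodal. On both undifferentiated arrays 7 of 11 of them were detected. Lyz1, Lyz2, Cd14 and Tyrobp were detected on no treated array, and Aif1, Csf1r, Fcer1g and Ptprc on no array of any group. Fibroblast feeder markers summed to 3833 to 3889 in undifferentiated cells, against 1353 to 1501 after Activin and 1427 to 1428 after Nodal. On both undifferentiated arrays 8 of 12 were detected, and of these Col1a1, Col3a1, Mgp and S100a4 were detected on no treated array. Pdgfrb went the other way, being detected after Activin and after Nodal but on no undifferentiated array. Col1a2, Lum and Postn were detected on no array of any group. ES cell markers summed to 60700 to 60860 in undifferentiated cells, 2142 to 2469 after Activin and 4181 to 4261 after Nodal. Definitive endoderm markers summed to 602.6 to 632.4, 24170 to 24440 and 21700 to 21750 in the same order, and visceral endoderm markers to 2029 to 2068, 1536 to 1706 and 4505 to 4511. Neural markers summed to 720.1 to 748.2 in undifferentiated cells, 619.4 to 619.8 after Activin and 519.6 to 533.7 after Nodal. The part of these cell types in the changes of transporter genes was not tested.

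**Figure D1:**
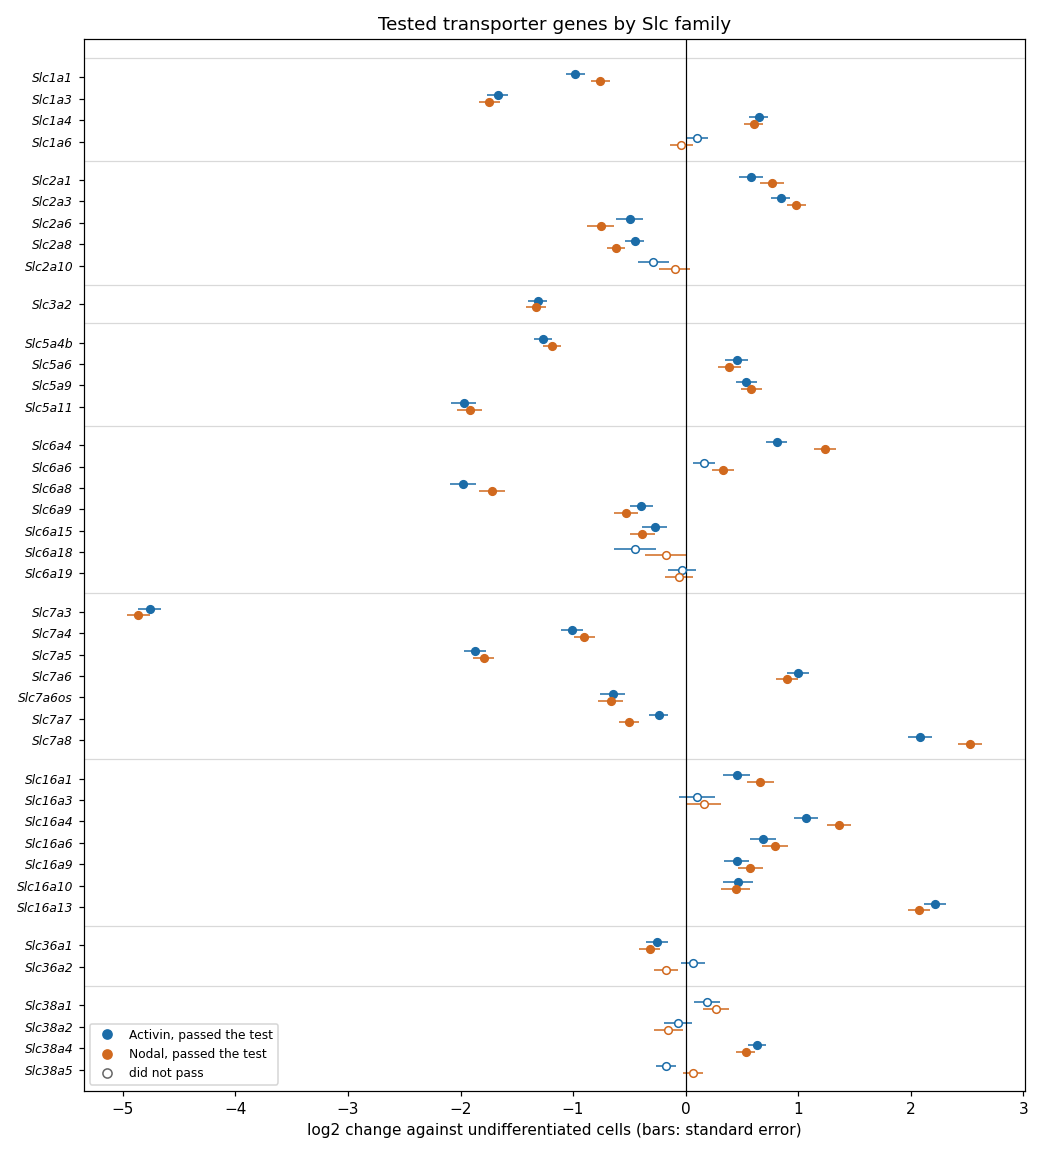
Log2 change of 41 of the 42 tested genes against undifferentiated cells (x axis), grouped by Slc family, after Activin (blue) and Nodal (orange). Bars are standard errors, and filled points passed at an adjusted p under 0.05; Slc7a3 lies farthest to the left at -4.76 and -4.86, and the Slc16 genes shown lie to the right of 0, with filled points for all but Slc16a3.

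Among the facilitative glucose carriers of the Slc2 family, 5 of 11 genes were tested, 2 were higher, 2 were lower and Slc2a10 did not pass in either comparison. The higher pair was Slc2a1 and Slc2a3, the main glucose carriers of many embryonic and proliferating cells. The log2 level of Slc2a3 was 12.90 and 12.97 on the undifferentiated arrays, 13.83 and 13.72 after Activin, and 13.89 and 13.94 after Nodal. Every treated array stood above both undifferentiated arrays, with the Nodal arrays slightly above the Activin arrays. The increase was 0.84 on the log2 scale after Activin (SE 0.0871, 1.79-fold, limma adjusted p = 1.54e-05) and 0.98 after Nodal (SE 0.0871, 1.98-fold, limma adjusted p = 5.05e-06).

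Slc2a1 had log2 levels of 12.98 and 13.13 in undifferentiated cells, 13.76 and 13.52 after Activin, and 13.85 and 13.80 after Nodal. The treated arrays again lay above the undifferentiated ones without overlap. It rose by 0.58 on the log2 scale after Activin (SE 0.105, limma adjusted p = 0.000686) and by 0.77 after Nodal (1.70-fold, limma adjusted p = 0.000104). Tested against a minimum fold of 1.5, the rise of Slc2a1 no longer passed in either comparison, and that of Slc2a3 passed in both.

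Slc2a8 and Slc2a6, carriers of intracellular membranes in this family, went the other way, the direction of Slc2a6 being set by the filter. Slc2a8 fell by 0.45 on the log2 scale after Activin and by 0.62 after Nodal. Slc2a6 was detected in undifferentiated cells only and was at least 1.27-fold lower after Activin (limma adjusted p = 0.00407) and at least 1.29-fold lower after Nodal (limma adjusted p = 0.000285). A bound of this kind sets the higher group's mean against the lowest signal detected on the other arrays, or the probe's own signal where that is higher. Slc2a2, the glucose carrier of liver and pancreatic beta cells, had 3 probes, none of which was detected on any array, and the same held for Slc2a4 and Slc2a5, the insulin-responsive glucose carrier and the fructose carrier.

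Of the sodium-coupled Slc5 family, 4 of 12 genes were tested. Slc5a11, a carrier of myo-inositol, had log2 levels of 6.70 and 6.64 on the undifferentiated arrays and between 4.54 and 4.85 on the 4 treated arrays, where it was not detected. It was at least 3.12-fold lower after Activin (limma adjusted p = 1.98e-07) and at least 3.16-fold lower after Nodal (limma adjusted p = 2.38e-07). Slc5a4b, a relative of the sodium-glucose cotransporters, stood at 5.67 on both undifferentiated arrays and at 4.38, 4.43, 4.52 and 4.45 on the Activin and Nodal arrays. This gene too was detected in undifferentiated cells only, and it was at least 1.56-fold and 1.58-fold lower after Activin and Nodal. The filter set the direction of Slc5a11 and Slc5a4b. Slc5a6, which carries biotin and pantothenate, rose by 0.45 and 0.39 on the log2 scale. Slc5a9, a mannose and glucose carrier, had measured changes of 0.54 and 0.58 at levels near the detection limit. It was detected on 1 array of each treated group and on no undifferentiated array, so its direction was set by the filter. No bound could be given, because its treated means lay below the lowest signal detected on the undifferentiated arrays. Slc5a1, the intestinal sodium-glucose cotransporter, was detected on no array.

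**Figure D2:**
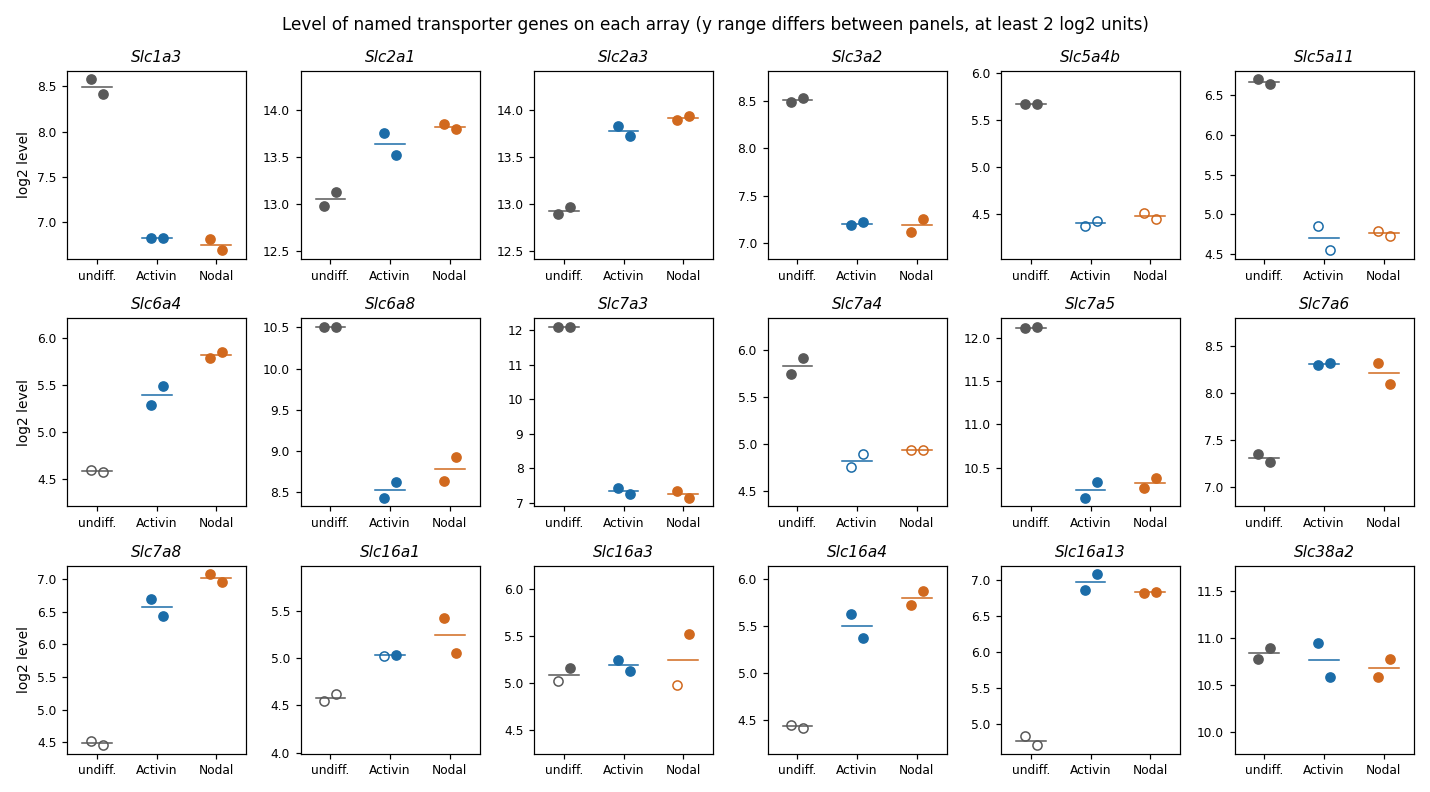
Log2 level of 18 named transporter genes (y axis, a separate range for each gene) on the 2 arrays of each group (x axis); lines are group means, filled points are arrays on which the probe was detected and open points are arrays on which it was not. Slc7a3, Slc7a5, Slc3a2, Slc6a8 and Slc1a3 were detected on every array and are lower on all treated arrays, while Slc7a8 and Slc16a13 were detected on treated arrays only.

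The largest difference of any member was that of Slc7a3, a carrier of arginine, lysine and ornithine. Its log2 level was 12.10 on both undifferentiated arrays, 7.43 and 7.24 after Activin, and 7.33 and 7.14 after Nodal. No treated array came near the undifferentiated ones, yet the probe was still detected on all 6 arrays. Slc7a3 fell by 4.76 on the log2 scale after Activin (SE 0.103, 27.1-fold, limma adjusted p = 4.16e-10) and by 4.86 after Nodal (SE 0.103, 29.1-fold, limma adjusted p = 3.61e-10). A second Slc7a3 probe was dim, detected on 2 arrays only, and changed by -0.26 after Activin (limma adjusted p = 0.0624) and by -0.41 after Nodal (limma adjusted p = 0.00953), so the size of the fall rests on 1 probe. Slc7a1, the widely expressed cationic amino acid carrier, had 2 probes and neither was detected on any array.

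The heavy chain Slc3a2 and its light chain Slc7a5, which together form the exchanger for leucine and other large neutral amino acids, were both lower in treated cells. Slc7a5 had log2 levels of 12.11 and 12.13 in undifferentiated cells, 10.15 and 10.34 after Activin, and 10.26 and 10.38 after Nodal. The groups of treated cells overlapped each other and lay far below the undifferentiated arrays. Slc7a5 fell 3.66-fold after Activin (log2 change -1.87, SE 0.0957, limma adjusted p = 1.03e-07) and 3.47-fold after Nodal (log2 change -1.80, limma adjusted p = 1.34e-07).

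Slc3a2 stood at 8.50 and 8.54 in undifferentiated cells, at 7.18 and 7.22 after Activin and at 7.11 and 7.25 after Nodal. Its treated arrays were likewise all below the undifferentiated ones. The decrease was 2.49-fold after Activin (log2 change -1.32, SE 0.0882, limma adjusted p = 6.96e-07) and 2.52-fold after Nodal (log2 change -1.33, limma adjusted p = 6.24e-07).

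Another partner of Slc3a2, the light chain Slc7a8, which carries a wider range of neutral amino acids, was higher in treated cells. Its log2 levels were 4.53 and 4.46 on the undifferentiated arrays, where it was not detected, 6.70 and 6.44 after Activin, and 7.07 and 6.96 after Nodal. Both Nodal arrays lay above both Activin arrays, and all 4 lay well above the undifferentiated arrays. Slc7a8 was at least 2.87-fold higher after Activin (limma adjusted p = 1.01e-07) and at least 3.90-fold higher after Nodal (limma adjusted p = 2.61e-08). A second Slc7a8 probe was also detected on the treated arrays only and passed in both comparisons. Both probes entered the test through the treated arrays, so their direction was set by the filter.

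Slc7a6, a light chain that exchanges cationic for neutral amino acids, had log2 levels of 7.35 and 7.26 in undifferentiated cells, 8.30 and 8.31 after Activin, and 8.32 and 8.10 after Nodal. All treated arrays were above the undifferentiated ones. It rose 2.00-fold after Activin (log2 change 1.00, SE 0.0983, limma adjusted p = 1.09e-05) and 1.87-fold after Nodal. The opposite-strand gene Slc7a6os fell (log2 change -0.65 after Activin and -0.67 after Nodal), and whether the probes keep the strands apart was not tested. Slc7a7, the close relative of Slc7a6, fell slightly, by 0.24 after Activin and 0.50 after Nodal. Slc7a4, an orphan of the cationic branch, stood at 5.75 and 5.92 on the undifferentiated arrays and at 4.76, 4.90, 4.93 and 4.94 on the treated arrays. It was not detected after treatment and was at least 1.75-fold lower after Activin and at least 1.77-fold lower after Nodal, a direction set by the filter. Without Slc7a6os, 6 of 13 Slc7 genes were tested, with 2 higher and 4 lower in each comparison. Slc7a11, the cystine carrier that Atf4 is known to induce, was detected on no array.

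Atf4 acts through composite elements of which TGATGCAA is a common core, and this word was looked for on both strands of the RefSeq promoter windows of GRCm38.p6, 250 bases before to 50 bases after each start. It was present in 294 of 32851 windows, or 0.895%, and in at least 1 window of 279 of 27025 genes, or 1.03%. Of the 42 tested genes, 28 had a window, and Slc1a4 and Slc7a7 held the word. The part of each window around the word is printed here to show where it lies, with the word in capitals. For Slc7a7 it begins 1 base before the start and is in 2 of its 5 windows. For Slc1a4 it begins 4 bases before the start and reads in the opposite direction.
Slc7a7, chr14:54417927-54417956, minus strand: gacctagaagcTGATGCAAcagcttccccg
Slc1a4, chr11:20332699-20332728, minus strand: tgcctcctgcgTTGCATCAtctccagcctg

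The neutral amino acid carrier Slc1a4 was among the genes that were higher in treated cells, and Slc7a7 was among those that were lower. The windows of Slc3a2 and Slc7a8, heavy and light chain with changes in opposite directions, do not contain the word. Their stretches of 150 bases are printed to let the promoter regions of the 2 partners be compared.
Slc3a2, chr19:8713898-8714047, minus strand: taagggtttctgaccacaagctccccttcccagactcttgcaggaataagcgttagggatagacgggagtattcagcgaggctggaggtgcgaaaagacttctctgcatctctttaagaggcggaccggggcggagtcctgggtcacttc
Slc7a8, chr14:54781887-54782036, minus strand: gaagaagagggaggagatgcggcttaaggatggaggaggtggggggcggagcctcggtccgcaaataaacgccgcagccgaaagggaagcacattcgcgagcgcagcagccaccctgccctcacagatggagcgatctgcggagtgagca
A missing word says only that these letters are not in this window. Slc7a3 and Slc7a5 had no window in the table.

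Glutamate and neutral amino acid carriers of the Slc1 family were tested for 4 of 7 genes. Slc1a3, the glutamate carrier best known from astrocytes, had log2 levels of 8.58 and 8.42 in undifferentiated cells, 6.83 and 6.83 after Activin, and 6.81 and 6.69 after Nodal. The treated arrays formed 1 narrow range far below the undifferentiated arrays. It fell 3.18-fold after Activin (log2 change -1.67, SE 0.0934, limma adjusted p = 1.93e-07) and 3.35-fold after Nodal (log2 change -1.75, limma adjusted p = 1.38e-07). Slc1a1, the glutamate carrier of many epithelia and neurons, was detected in undifferentiated cells only, so its direction was set by the filter. The gene was at least 1.31-fold and 1.32-fold lower. Slc1a4, a carrier of alanine, serine and cysteine, rose by 0.65 after Activin and 0.60 after Nodal. Slc1a6, a glutamate carrier of Purkinje cells, changed by 0.10 and -0.04 and did not pass. Slc1a5, the glutamine carrier of many dividing cells, had 2 probes with raw signals of 32.5 to 50.7, which were detected on no array.

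The Slc6 family, whose members couple amino acids, amines and creatine to sodium and chloride, was tested for 7 of 17 genes. The creatine carrier Slc6a8 had log2 levels of 10.51 on both undifferentiated arrays, 8.44 and 8.62 after Activin, and 8.64 and 8.93 after Nodal. All treated arrays were lower, and both Nodal arrays lay above both Activin arrays. Slc6a8 fell 3.94-fold after Activin (log2 change -1.98, SE 0.114, limma adjusted p = 2.31e-07) and 3.29-fold after Nodal (log2 change -1.72, limma adjusted p = 6.15e-07).

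Slc6a4, the serotonin carrier, was detected on treated arrays only, so its direction against undifferentiated cells was set by the filter. Its log2 levels were 4.59 and 4.57 in undifferentiated cells, 5.29 and 5.49 after Activin, and 5.79 and 5.85 after Nodal. The 3 groups did not overlap. Slc6a4 was at least 1.26-fold higher after Activin (limma adjusted p = 3.9e-05) and at least 1.70-fold higher after Nodal (limma adjusted p = 1.89e-06).

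The other Slc6 genes moved little. Slc6a9, a glycine carrier, fell (log2 change -0.39 after Activin and -0.53 after Nodal), and Slc6a15, a carrier of branched-chain amino acids and proline, fell (log2 change -0.28 after Activin and -0.39 after Nodal). The taurine carrier Slc6a6 rose by 0.33 after Nodal, and its change of 0.16 after Activin did not pass. Slc6a18 and Slc6a19, carriers of kidney and gut epithelia, passed in neither comparison, with 95% intervals of the log2 change after Activin of -0.88 to -0.02 and -0.31 to 0.25. Slc6a18 passed after Activin without background correction, with an offset of 50, with median scaling and with cyclic loess. Slc6a15 lost its call after Activin under these 4 settings. After Nodal, Slc6a6 and Slc6a15 lost their calls with median scaling. No call turned its direction under the 4 settings.

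Among the monocarboxylate carriers, the changes that passed ran 1 way. Of 8 tested Slc16 genes among 12, 7 were higher and none was lower after Activin, and the same counts were found after Nodal, beside 36.5% of all genes higher and 37.2% lower after Activin and 36.8% and 37.4% after Nodal. The median log2 change was 0.58 and 0.66, or 0.45 and 0.38 with undetected genes at their bound where a bound could be given. Slc16a1 had no bound after Activin and entered that median at its measured change of 0.45. The tested probes of Slc16a1, Slc16a4, Slc16a10 and Slc16a13, among others, were not detected in undifferentiated cells and entered the test through treated cells, so that their direction was set by the filter. Slc16a6 and Slc16a9 were detected on all arrays.

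Slc16a13, a carrier expressed in liver, had log2 levels of 4.82 and 4.70 on the undifferentiated arrays, 6.87 and 7.08 after Activin, and 6.82 and 6.84 after Nodal. All 4 treated arrays were detected and lay far above the undifferentiated arrays. It was at least 3.79-fold higher after Activin (limma adjusted p = 4.28e-08) and at least 3.43-fold higher after Nodal (limma adjusted p = 6.5e-08). Slc16a4, whose cargo is less well known, stood at 4.46 and 4.42 in undifferentiated cells, 5.63 and 5.37 after Activin, and 5.73 and 5.87 after Nodal. Its groups did not overlap, and it was at least 1.37-fold higher after Activin and at least 1.68-fold higher after Nodal.

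Slc16a1, the main carrier of lactate and pyruvate in many cells, was dim throughout. Its log2 levels were 4.54 and 4.62 in undifferentiated cells, 5.03 and 5.04 after Activin, and 5.43 and 5.06 after Nodal. The treated arrays were higher, but only 1 Activin array and both Nodal arrays were detected. The measured log2 change was 0.45 after Activin (SE 0.12, limma adjusted p = 0.00687) and 0.66 after Nodal (limma adjusted p = 0.000695), with a bound of at least 1.14-fold higher after Nodal. Slc16a3, the lactate exporter of glycolytic cells, had levels of 5.02 and 5.15 in undifferentiated cells, 5.25 and 5.13 after Activin, and 4.98 and 5.52 after Nodal. Its groups overlapped, and its log2 changes of 0.10 and 0.16 did not pass, with 95% intervals of -0.25 to 0.45 and -0.20 to 0.51. The result after Nodal hung on single arrays: the change was 0.43 without the lower Nodal array and -0.11 without the higher one. Another tested Slc16a3 probe changed by 0.11 after Activin and by -0.18 after Nodal and passed in neither comparison.

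Other Slc16 genes rose by less than 1 on the log2 scale by their brightest probe. Slc16a6, a carrier linked to ketone bodies in zebrafish, rose by 0.68 and 0.79 by that probe, by 1.25 and 1.40 by another, and by a last probe by 0.39 after Activin, which passed, and by 0.15 after Nodal, which did not. Slc16a10, a carrier of aromatic amino acids, was at least 1.16-fold and 1.14-fold higher. Slc16a9 rose by 0.45 and 0.57.

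The remaining amino acid carriers changed little. Of the Slc36 family, which carries amino acids together with protons, 2 of 3 genes were tested. Slc36a1 was slightly lower, at least 1.08-fold after Activin and at least 1.10-fold after Nodal, and Slc36a2 did not pass. Slc36a1 was detected in undifferentiated cells only, so its direction was set by the filter. Of the Slc38 family of sodium-coupled neutral amino acid carriers, 4 of 5 genes were tested. Slc38a4 rose by 0.63 and 0.53, while Slc38a1, Slc38a2 and Slc38a5 passed in neither comparison. The stress-induced carrier Slc38a2 had log2 levels of 10.78 and 10.89 in undifferentiated cells, 10.95 and 10.58 after Activin, and 10.58 and 10.78 after Nodal. The groups overlapped, and the changes were -0.07 (95% interval -0.36 to 0.22) and -0.15 (95% interval -0.44 to 0.14). A second Slc38a2 probe fell (log2 change -0.40 after Activin and -0.36 after Nodal, limma adjusted p = 0.025 and 0.041), so the probes do not give the same call. Neither Slc43 gene, both amino acid or nucleobase carriers, was detected on any array.

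In all, 42 symbols were not tested. Of these, 40 were detected on no array, and the others on 1. A probe that is not detected gives no level, and the gene may still be expressed below the reach of that probe.

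The next comparison asked whether Nodal and Activin left the transporter genes at different levels. None of the 42 genes passed (limma), while 2.82% of all genes did, 1.48% being higher and 1.34% lower after Nodal. An unadjusted limma p under 0.05 was found for 8 of the 42 genes and for 1588 of all 10222 genes tested. The differences ran from -0.26 for Slc7a7 to 0.44 for Slc7a8 on the log2 scale. The 95% interval of the difference lay within 0.5 of 0 for 36 genes and within 1 of 0 for all 42. A difference of 2-fold or more in normalized signal was thus outside the interval of each gene, and smaller differences were not excluded. For the 6 genes detected on no array of treated cells, the interval compares background signals. It therefore gives no bound on a difference in their expression.

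The genes nearest to the threshold were Slc6a4, with a difference of 0.43 (95% interval 0.21 to 0.64, limma adjusted p = 0.0512), and Slc7a8, with 0.44 (95% interval 0.21 to 0.68, limma adjusted p = 0.0641). Both were higher on both Nodal arrays than on either Activin array. Slc7a8 passed without background correction (limma adjusted p = 0.0293), with an offset of 50 (0.0285), with median scaling (0.0468), with a detection p-value under 0.01 (0.0434), with its probes averaged (0.0290), with array number as a block (0.0437) and without the first Activin array (0.0462). Slc6a4 passed with median scaling (limma adjusted p = 0.0358), with cyclic loess (0.0401) and with a detection p-value under 0.01 (0.0335). Whether these genes differ between Nodal and Activin therefore turns on such settings.

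**Figure D3:**
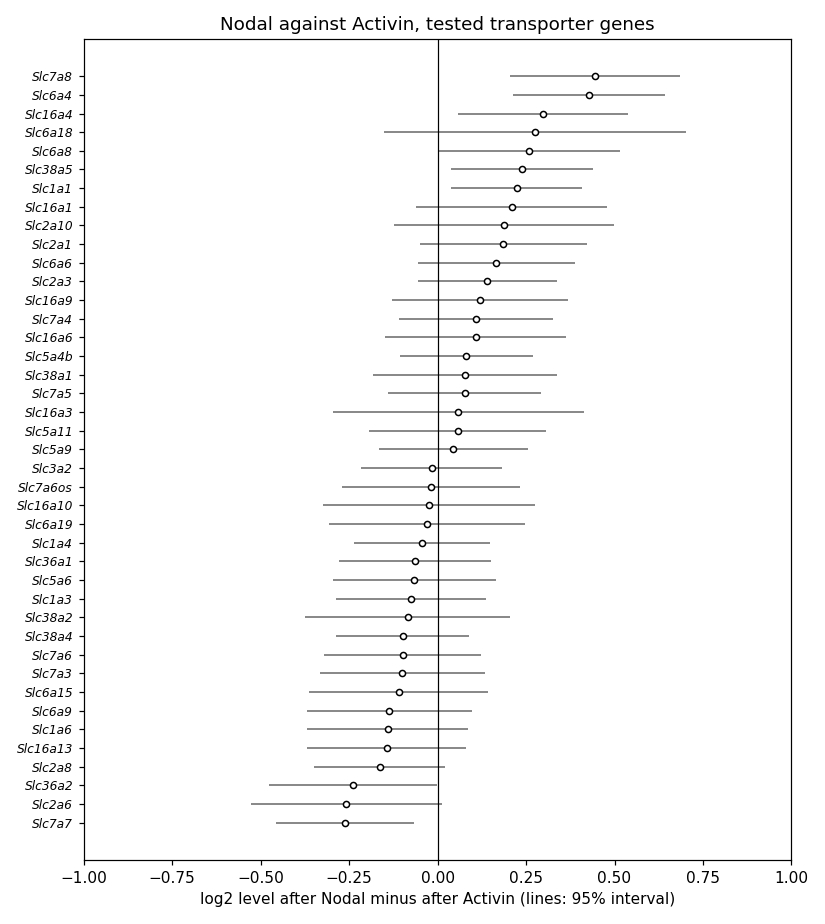
Difference in log2 level between Nodal and Activin (x axis) for 41 of the 42 tested genes, each with its 95% interval as a line. No gene passed at an adjusted p under 0.05, and the intervals of the genes shown lie between -1 and 1, with Slc7a8 at the top at 0.44 and Slc7a7 at the bottom at -0.26.

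Genes that work beside the transporters were described from 5 lists. In the amino acid response list, 17 genes of the Atf4 program were tested; 13 were lower, 3 higher and 1 not passing after Activin, and 13 were lower and 2 higher after Nodal. The median log2 change was -0.90 and -1.02. Atf4 itself fell from 12.47 and 12.39 in undifferentiated cells to 11.12 and 11.11 after Activin and to 11.21 and 11.16 after Nodal, by 1.31 (limma adjusted p = 4.97e-07) and 1.24 on the log2 scale. Chac1, which breaks down glutathione, fell (log2 change -4.97 after Activin and -5.14 after Nodal), and Trib3, an inhibitor of Akt and of Atf4 itself, fell (log2 change -2.94 after Activin and -2.97 after Nodal). The stress gene Nupr1 fell (log2 change -2.45 after Activin and -3.11 after Nodal). Vldlr, a lipoprotein receptor, rose by 2.55 and 2.07. Over all genes tested, 37.2% were lower after Activin and 37.4% after Nodal. Between the treatments, Nupr1 and the secreted glycoprotein Stc2 were lower after Nodal (log2 difference -0.67 and -0.56, limma adjusted p = 0.0319 and 0.0295). The same undifferentiated arrays held the macrophage and feeder markers given above.

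Enzymes of amino acid synthesis and breakdown were lower for 19 of 27 tested genes after Activin, with 3 higher, and for 20 of 27 after Nodal, with 3 higher. Over all genes, 37.2% and 37.4% were lower and 36.5% and 36.8% higher. The medians of the list were -1.01 and -1.12. Tdh, the threonine dehydrogenase on which mouse ES cells are known to rely, had log2 levels of 11.85 and 11.91 in undifferentiated cells and 5.02, 4.91, 5.37 and 5.51 on the Activin and Nodal arrays. It was at least 115-fold lower after Activin, where it was not detected, and fell by 6.44 on the log2 scale after Nodal. Bcat1, the branched-chain aminotransferase, fell (log2 change -4.45 after Activin and -4.65 after Nodal), the mitochondrial folate enzyme Mthfd2 fell (log2 change -3.36 after Activin and -3.54 after Nodal), and Cth, which makes cysteine, fell (log2 change -2.89 after Activin and -3.20 after Nodal). Tdh was at least 1.33-fold higher after Nodal than after Activin (limma adjusted p = 0.0294).

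The glucose list, which holds glycolytic enzymes and genes regulated with them, had 14 lower and 2 higher of 22 tested genes after Activin, and 13 lower and 3 higher after Nodal, beside the same 37.2% lower and 36.5% higher, and 37.4% and 36.8%, of all genes. The median change was -0.49 and -0.44, beside the increases of Slc2a1 and Slc2a3. The phosphofructokinase Pfkp fell (log2 change -4.81 after Activin and -5.28 after Nodal), the pyruvate dehydrogenase kinase Pdk1 fell (log2 change -2.67 after Activin and -2.68 after Nodal), and the hexokinase Hk2 fell (log2 change -1.29 after Activin and -1.39 after Nodal). Vegfa, an angiogenic growth factor induced by low oxygen, rose by 1.74 and 1.88. Amino acid sensing genes around the kinase complex mTORC1 were divided, with 6 higher, 6 lower and 7 not passing of 19 tested after Activin, and 6, 7 and 6 after Nodal, where 73.7% and 74.2% of all genes passed. Slc38a9, the lysosomal arginine sensor, listed under an older symbol and so no member, rose by 2.00 and 1.93 and the GTPase Rragd by 1.67 and 1.64, while the arginine sensor Castor1 fell (log2 change -1.63 after Activin and -1.73 after Nodal) and the translation repressor Eif4ebp1 fell (log2 change -1.32 after Activin and -1.54 after Nodal).

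Of 6 tested partners of monocarboxylate carriers and genes of pyruvate handling, 1 was higher and 3 were lower after Activin, and 1 and 2 after Nodal, against 73.7% and 74.2% of all genes passing. The higher gene was Emb, or embigin, a membrane glycoprotein that accompanies monocarboxylate carriers to the cell surface. Its log2 levels were 10.04 and 9.81 in undifferentiated cells, 14.18 and 14.01 after Activin, and 14.39 and 14.25 after Nodal. The treated arrays lay far above the undifferentiated ones. Emb rose by 4.17 on the log2 scale after Activin (SE 0.11, limma adjusted p = 1.4e-09) and by 4.39 after Nodal (21.0-fold, limma adjusted p = 1.02e-09). The pyruvate dehydrogenase subunits Pdhb and Pdha1 fell by 1.13 and 0.41 after Activin and by 1.33 and 0.41 after Nodal. Mpc2, a subunit of the mitochondrial pyruvate carrier, fell by 0.28 after Activin. Bsg, or basigin, the other known partner glycoprotein, was not tested.

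**Figure D4:**
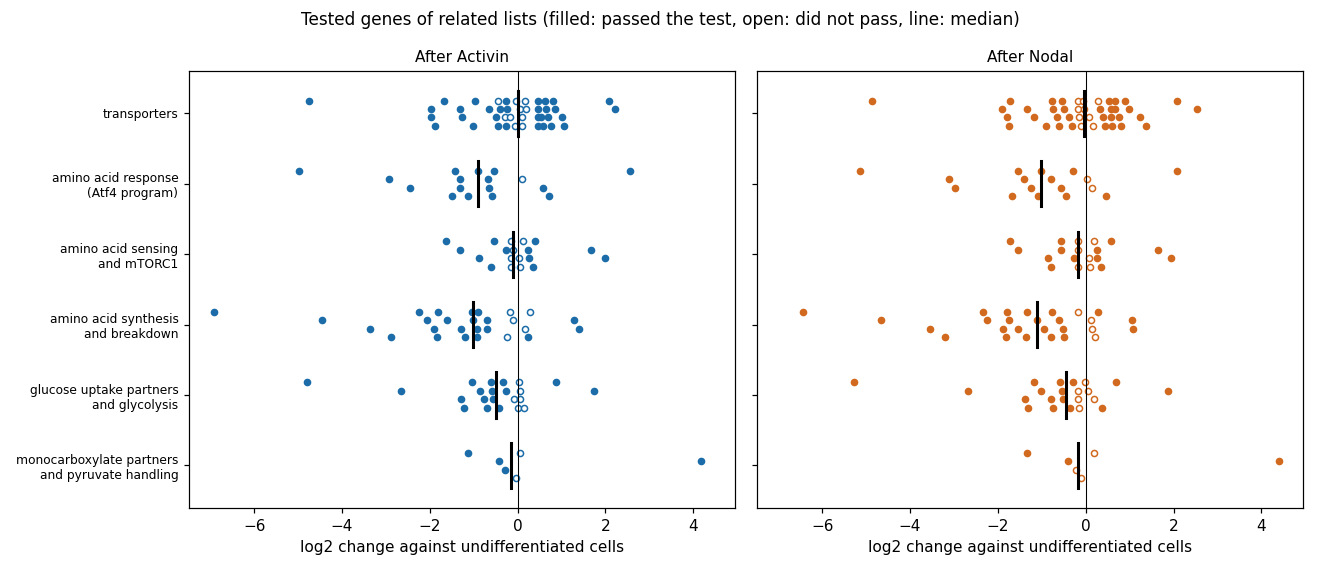
Log2 change against undifferentiated cells (x axis) of the tested genes of the transporter families and of 5 related lists (rows), after Activin (left) and Nodal (right); filled points passed the test, open points did not, and the black line is the median. The medians of the transporters lie near 0 (0.02 and -0.05), while those of amino acid synthesis and breakdown lie at -1.01 and -1.12.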

How the data were processed

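Total RNA was labelled with biotin and hybridised to Illumina bead arrays, per the labels' protocols. The array model and scanner software were not given in the labels or headers used here. Per the file headers, the authors deposited for each probe and array an intensity, neither normalized nor background-subtracted, with a detection p-value. Deposited averages of replicates were not used, since they hold no spread. Groups follow the sample titles. The series text names the undifferentiated sample differently, and the descriptions give differing replicate numbers.

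Intensities were corrected with the normal-exponential model (limma 3.58.1, R 4.3.3, neqc, offset 16), quantile-normalized and log2-transformed. Probes with a detection p-value under 0.05 on 2 or more arrays were kept (14050), and each gene was represented by its brightest probe (10222 genes). Symbols were updated through RefSeq (GRCm38.p6). A linear model of the 3 groups (lmFit, eBayes) was tested two-sided, with Benjamini-Hochberg adjustment over all genes and a threshold of 0.05. The fit alone was also run on simulated log2 levels with 200 genes changed. That run leaves out the normalization and has far fewer changed genes than passed here, so it does not test these. The number of arrays limits precision. Named in full were members that passed with a log2 change of at least 1 against undifferentiated cells or at least 0.5 between treatments, 10 fixed transporters, and up to 4 genes per related list, besides Atf4 and genes outside this rule that were named after their values were seen. The members and lists were chosen with earlier results of these data known. A few members are counted but not named or plotted by name. Alternatives covered background, offset, scaling, filter, probe choice, minimum fold, array block and left-out arrays.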

Additional observations from a re-analysis of the deposited data

How the results depend on the processing

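No transporter gene named in full that passed changed sign under an alternative. Among the genes named in full, 3 calls against undifferentiated cells after Activin and 2 after Nodal were lost with the minimum fold of 1.5. The log2 change of Slc16a3 after Nodal, 0.16 in the reported fit, was 0.43 without Nodal replicate 1. Many more calls were lost over all tested members. In the reported fit 16 members were higher and 16 lower after Activin, and 17 higher and 16 lower after Nodal. With the minimum fold of 1.5, 3462 genes passed after Activin and 3541 after Nodal, with 5 members higher and 9 lower after Activin and 6 higher and 8 lower after Nodal. Passing members of the related lists were then 10 (amino acid response), 5 (amino acid sensing), 8 (glucose) and 2 (monocarboxylate partners) after Activin, and 5 (amino acid sensing) and 7 (glucose) after Nodal. Fewer pass by construction. Between Nodal and Activin, 288 genes passed in the reported fit, against 469 without background correction, 468 with an offset of 50, 114 without a filter and 8 with the minimum fold, and the cause was not tested. Members higher after Nodal than after Activin numbered 0 in the reported fit, 2 without background correction, 1 with an offset of 50, 2 with median scaling, 1 with cyclic loess, 2 with a detection p-value under 0.01, 1 with all probes of a gene averaged and 1 with array number as a replicate block. The arrays share only a number: deviations of same-numbered arrays correlated at 0.101, 0.00402 and 0.0252, and the block changed no other count by more than 1.5 times. Median scaling put the lower members after Activin at 12, without Slc2a8, Slc6a9, Slc6a15, Slc7a7 and Slc36a1. After Nodal, median scaling removed the calls of Slc6a6 and Slc6a15, and an offset of 50 removed that of Slc36a1.

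Leaving out 1 array at a time gave 6432 to 7422 genes after Activin, 6523 to 7664 after Nodal and 79 to 262 between the treatments. Members, Slc7a6os included, ranged from 15 to 16 higher and 8 to 16 lower after Activin, from 14 to 18 higher and 10 to 18 lower after Nodal, and from 0 to 1 higher between treatments. The lower counts after Activin were 10 without undifferentiated replicate 1 and 8 without undifferentiated replicate 2, where the 6 genes detected on those 2 arrays only left the test and other calls were lost or gained. After Nodal the count was 10 without undifferentiated replicate 2. Between treatments 79, 80 and 84 genes passed without Activin replicate 2, Nodal replicate 1 and Nodal replicate 2. With the same probes kept, an alternative chosen after seeing the data, 82, 84 and 90 genes passed between treatments without Activin replicate 2, Nodal replicate 1 and Nodal replicate 2, and 1 member was higher without Activin replicate 1. A lone array is assumed to vary like the other groups. Probes near the detection limit, among them Slc16a1, Slc16a3, Slc5a9 and Slc36a1, give little precision.

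Differences near 0 that did not pass changed sign, and in none of these cases did the turned value pass. Between Nodal and Activin, Slc3a2 was at 0.0014 with median scaling, and with all probes of a gene averaged Slc16a3 was at -0.11 and, after Nodal against undifferentiated cells, at -0.0083. Leaving out 1 array, the difference between treatments ran from -0.21 to 0.33 for Slc16a3, -0.27 to 0.10 for Slc38a2, -0.088 to 0.052 for Slc3a2, -0.10 to 0.21 for Slc5a11, -0.017 to 0.17 for Slc7a5 and -0.21 to 0.01 for Slc7a6. The change of Slc16a3 after Nodal ran from -0.11 to 0.43 and that of Slc38a2 after Activin from -0.25 to 0.11. With the same probes kept, the turned differences between treatments were -0.017 (Slc7a5) and 0.096 (Slc38a2) without Activin replicate 1, 0.0014 (Slc3a2), -0.0998 (Slc5a11) and -0.0032 (Slc16a3) without Activin replicate 2, 0.052 (Slc3a2) and 0.011 (Slc38a2) without Nodal replicate 1, and 0.012 (Slc7a6) and -0.212 (Slc16a3) without Nodal replicate 2.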
